A study of Mus musculus with 6 samples.

Results

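The fibrillar collagen chains were measured here as 10 genes, *Col1a1*, *Col1a2*, *Col2a1*, *Col3a1*, *Col5a1*, *Col5a2*, *Col5a3*, *Col11a1*, *Col24a1* and *Col27a1*, of 27307 genes with a symbol on the array. They are the family's members by gene symbol, and every non-control probe that carried one of these symbols was taken, which gave 24 probes of 56605. Gene expression was measured in myocardium of male C57BL/6J mice with conditional loss of *Clk4* (*Clk4*-cKO). As the study describes them, these mice carry *Clk4* with exons flanked by loxP sites and the *α-MHC-MerCreMer* transgene. The transgene puts a tamoxifen-inducible Cre under a cardiomyocyte promoter, so the deletion is meant for cardiomyocytes. The labels give this deletion for both groups. The NEXN-WT group (3 samples, the control) had received AAV9 carrying wild-type mouse *Nexn*, and the NEXN-S437E group (3 samples) the same vector with a phosphomimic mutant, in which serine is replaced by glutamate. The vector's CMV promoter is not restricted to cardiomyocytes, and the labels give no age. By the labels neither group had intact *Clk4* or lacked the vector, and the groups differed in the form of NEXN. A probe of *Esr1*, a gene of which MerCreMer uses a part, differed between them as well and is given below.

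Fibrillar collagens are the tension-bearing fibres of the extracellular matrix. Each chain is a long run of Gly-X-Y triplets with a globular propeptide at each end, and chains assemble in trimers from the C-propeptide onwards. Type I collagen (*Col1a1* and *Col1a2*) and type III collagen (*Col3a1*) make up most of the interstitial collagen of the heart and come mainly from fibroblasts, type V chains (*Col5a1*, *Col5a2*, *Col5a3*) start fibrils and limit their width, *Col2a1* and *Col11a1* are known best from cartilage, and *Col24a1* and *Col27a1* code for late-described minor fibrillar chains.

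Each sample was read on 1 Agilent array, all on 1 slide in 1 scan. Slide row 1 held all NEXN-WT arrays and 1 NEXN-S437E array, and row 2 the other NEXN-S437E arrays. A level below is the log2 processed signal minus the 75th percentile of the same array, so a level of 0 is the brightness of that percentile, and levels of different probes cannot be ranked against each other. Between 41.9% and 47.8% of spots were well above background per array. NEXN-WT replicate 1 stood apart: its mean absolute log2 difference from the other NEXN-WT arrays was 0.38 and 0.44 over all tested probes, against 0.25 between those arrays and 0.19 to 0.29 among the NEXN-S437E arrays. The main collagen results, and the counts of the gene lists, are therefore given with and without it. The *Clk4* probe A_52_P445387 had levels of 1.48, 1.12 and 1.30 with NEXN-WT and of 1.49, 1.18 and 1.63 with NEXN-S437E. Whether it lies in the deleted exons was not analysed here, and no array labelled as having intact *Clk4* was there to set beside it, so it checks no label. The tested *Nexn* probes did not differ past the thresholds either (log2 fold changes of 0.02 and 0.14, SE 0.24 and 0.20). *Esr1* codes for the receptor whose ligand-binding domain is used in MerCreMer. Whether the *Esr1* probe A_55_P2030883 lies in the code for that domain was not analysed here. The probe had levels of 3.13, 5.82 and 5.21 with NEXN-WT and was well above background on none of the NEXN-S437E arrays. This is a difference of at least 255-fold (adjusted p = 0.00114 from limma). Of the other tested *Esr1* probes, A_52_P237077 was likewise above background on the NEXN-WT arrays alone, with a bound of at least 1.55-fold, and A_65_P17231 had a log2 fold change of -0.58 (SE 0.31); neither passed the thresholds. Whether the groups carried the same transgene was not tested, and every comparison below is between samples that also differed in this probe.

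Of the 24 collagen probes, 11 from 7 genes were tested because a whole group, all 3 of its arrays, read them well above background, 6 others were above background on some array but not on enough, and 7 were above background on none. All 11 tested probes were lower with NEXN-S437E, and 10 of them, from 6 genes, were at least 2-fold lower with an unadjusted p under 0.05, where 1.78% of the 22998 tested probes were. None was called higher, against 0.735% of all probes. The *Col5a3* probe was 1.80-fold lower and missed the 2-fold threshold. No collagen probe had an adjusted p under 0.05 by limma (0.161% of all probes did), although all 11 had an unadjusted p under 0.05 (17.2% of all), as 7 did in the t-test named in the study's methods, which left no probe of the whole array past its adjusted p. The adjusted p of the 11 ranged from 0.0815 to 0.269. Their median log2 fold change was -1.55, beside 0.09 over all tested probes. On 9 of the 11 every NEXN-S437E array was below every NEXN-WT array, as on 9.17% of all tested probes. With the slide row as a block 6 of the 11 were called lower, where 2.47% of all tested probes were. The set of 11 includes 3 probes, of *Col2a1*, *Col5a2* and *Col1a2* (A_55_P2610616), that entered only because NEXN-WT was bright, which favours a lower value with NEXN-S437E. Over the 8 probes well above background on all 6 arrays the median was -1.52, and 7 were called lower. The share called among all probes read on all 6 arrays is not given here.

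**Figure D1:**
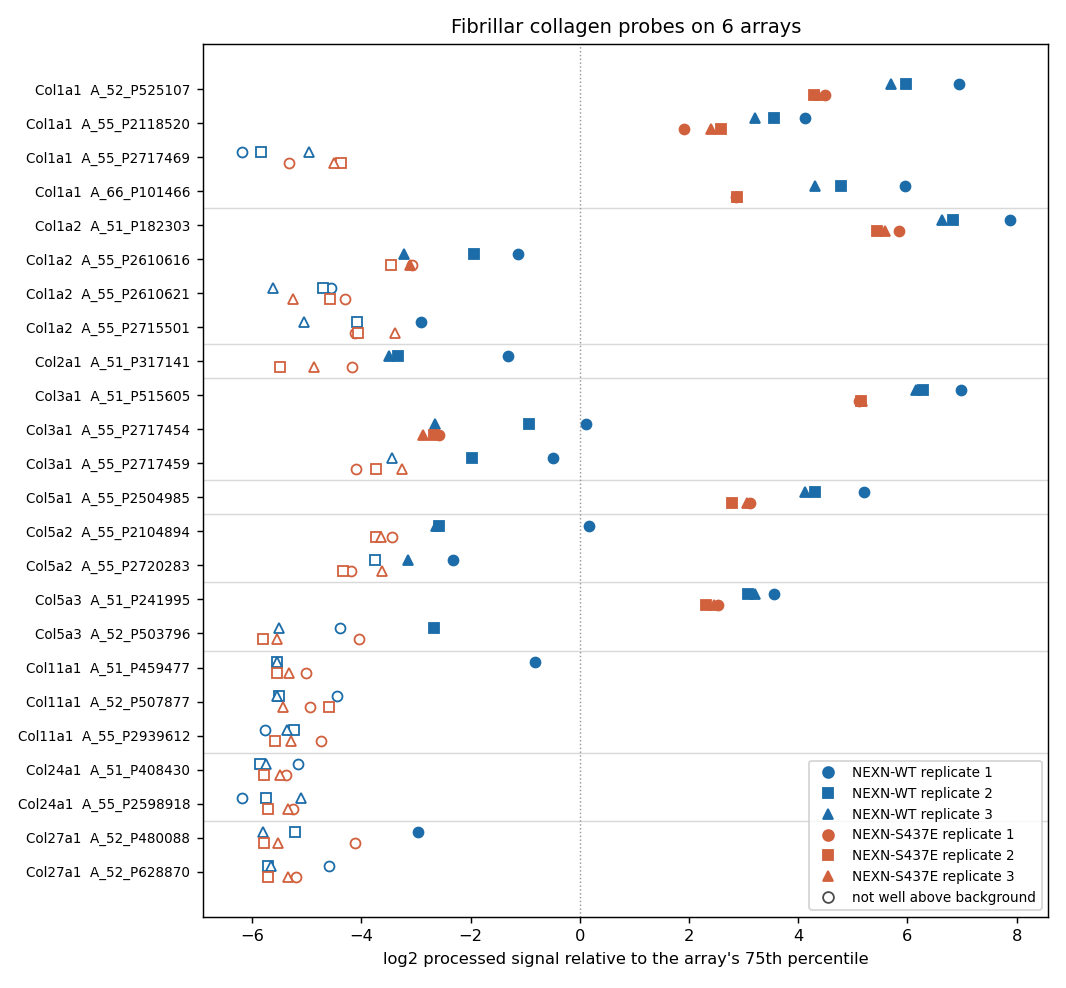
Level of each of the 24 fibrillar collagen probes (rows, by gene) on the 6 arrays, as log2 processed signal relative to the array's 75th percentile. Blue marks NEXN-WT and orange NEXN-S437E, the marker shape gives the replicate, and open markers are not well above background; on the 11 tested probes the blue circle, NEXN-WT replicate 1, is always the highest.

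NEXN-WT replicate 1 had the highest level on all 11 tested collagen probes, against 22.5% of all tested probes, and exceeded the mean of the other NEXN-WT arrays by 0.40 to 2.78 on the log2 scale (median 1.14, beside -0.11 over all tested probes). The spread within NEXN-WT was accordingly wider for these probes (median SD 0.67, beside 0.24 over all) than within NEXN-S437E (median SD 0.16 and 0.16). The other NEXN-WT arrays were both above every NEXN-S437E array on 9 of the 11 probes, as on 12.5% of all tested probes. Without NEXN-WT replicate 1, 8 probes were called lower, where 1.15% of all were (6 of the 8 probes on all 6 arrays, the others being *Col2a1* and *Col5a2*), the median log2 fold change was -1.09, and 4 had an adjusted p under 0.05 by limma, where 0.548% of all did. These 4 were *Col1a1* A_52_P525107 and A_66_P101466, *Col3a1* A_51_P515605 and *Col5a1* A_55_P2504985.

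Type I collagen was measured by the most probes. The *Col1a1* (α1(I) chain) probe A_52_P525107, at chr11:94813075-94813134 of mm9, had levels of 6.94, 5.97 and 5.69 with NEXN-WT and 4.49, 4.29 and 4.36 with NEXN-S437E. The groups did not overlap, and the level was 3.53-fold lower with NEXN-S437E (log2 fold change -1.82, SE 0.30, adjusted p = 0.0815 from limma). The probe A_66_P101466, at chr11:94814188-94814247, 1054 bases further along and with no transcript accession in the array's annotation, had levels of 5.96, 4.78 and 4.31 against 2.87, 2.87 and 2.88. It showed the largest change among the collagen probes well above background on every array, 4.41-fold lower (log2 fold change -2.14, SE 0.37, adjusted p = 0.0853 from limma), and the NEXN-S437E arrays lay within an SD of 0.0085. The probe A_55_P2118520, at chr11:94813115-94813174, had levels of 4.12, 3.56 and 3.21 against 1.92, 2.59 and 2.40, again without overlap (log2 fold change -1.33, SE 0.27, adjusted p = 0.109 from limma). It shares 20 bases with A_52_P525107, so the probes are not independent readings of the transcript. The shared stretch is shown because it marks that overlap.
*Col1a1*, shared by both probes (mm9, chr11:94813115-94813134): TGACCAACTGAACGTGACCA
The remaining probe, A_55_P2717469, was well above background on none of the arrays.

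The *Col1a2* (α2(I) chain) probe A_51_P182303, at chr6:4490619-4490678, had levels of 7.88, 6.84 and 6.64 with NEXN-WT and 5.84, 5.44 and 5.59 with NEXN-S437E. The groups did not overlap, and the level was 2.82-fold lower (log2 fold change -1.49, SE 0.31, adjusted p = 0.114 from limma). The probe A_55_P2610616, which lies 11227 bases before it and has no transcript accession, had levels of -1.13, -1.93 and -3.22 against -3.08, -3.46 and -3.11, and 1 NEXN-S437E array read it well above background. Its groups overlapped, and its log2 fold change of -1.12 (SE 0.46, adjusted p = 0.269 from limma) was -0.64 without NEXN-WT replicate 1, where it was no longer called. Of the other *Col1a2* probes, A_55_P2715501 was above background on NEXN-WT replicate 1 alone and A_55_P2610621 on no array.

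The *Col3a1* (type III chain) probe A_51_P515605, at chr1:45405589-45405648, had levels of 6.99, 6.29 and 6.16 with NEXN-WT and 5.11, 5.15 and 5.16 with NEXN-S437E. The NEXN-S437E arrays were within an SD of 0.026, the groups did not overlap, and the level was 2.53-fold lower (log2 fold change -1.34, SE 0.22, adjusted p = 0.0815 from limma). The probe A_55_P2717454, 23765 bases before it and without a transcript accession, had levels of 0.12, -0.93 and -2.66 against -2.57, -2.67 and -2.88. NEXN-WT replicate 3 lay below 1 of the NEXN-S437E arrays, and the log2 fold change of -1.55 (SE 0.59, adjusted p = 0.251 from limma) was -0.91 without NEXN-WT replicate 1 and then not called. The remaining probe, A_55_P2717459, 31746 bases before the transcript probe, was above background on 2 NEXN-WT arrays and on no NEXN-S437E array and was not tested. Whether these distant probes lie in exons or introns was not analysed here.

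**Figure D2:**
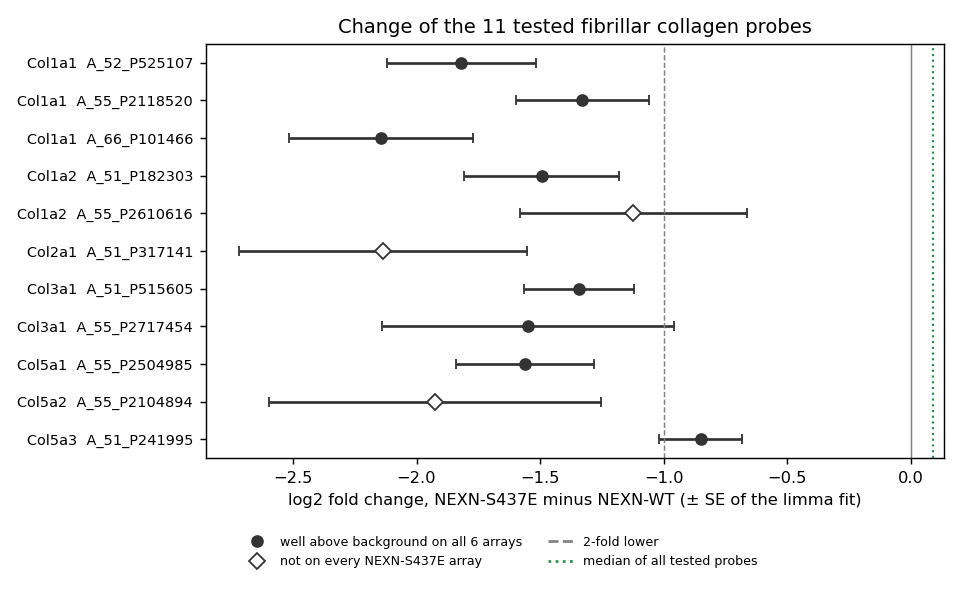
Log2 fold change (horizontal axis, NEXN-S437E minus NEXN-WT, bars ± SE of the limma fit) of the 11 tested probes. All lie left of 0 and of the dotted median of all tested probes (0.09), and the *Col5a3* probe alone lies right of the dashed 2-fold line; open diamonds were not above background on every NEXN-S437E array.

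Among the type V chains, *Col5a1* (α1(V) chain) A_55_P2504985, at chr2:27894595-27894654, had levels of 5.20, 4.30 and 4.13 with NEXN-WT and 3.11, 2.78 and 3.06 with NEXN-S437E. The groups did not overlap, and the level was 2.95-fold lower (log2 fold change -1.56, SE 0.28, adjusted p = 0.0853 from limma). *Col5a2* (α2(V) chain) A_55_P2104894, on the reverse strand at chr1:45431204-45431263, 25556 bases beyond the *Col3a1* transcript probe, was well above background on none of the NEXN-S437E arrays. Its NEXN-WT levels were 0.18, -2.57 and -2.63, so that the mean rested on 1 array, and NEXN-S437E was lower by a factor of at least 3.03 (limma, adjusted p = 0.224), or of at least 1.59 without that array. The other *Col5a2* probe, A_55_P2720283, was above background on 2 NEXN-WT arrays and on no NEXN-S437E array. *Col5a3* (α3(V) chain) A_51_P241995, at chr9:20574592-20574651, was not called, with levels of 3.55, 3.09 and 3.21 against 2.52, 2.31 and 2.46. Its groups did not overlap (log2 fold change -0.85, SE 0.17, adjusted p = 0.107 from limma).

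The second *Col5a3* probe, A_52_P503796, is shown because its letters carry the repeat that defines the family. It is 60 bases long and spans 730 bases of mm9 (chr9:20590066-20590795, reverse strand), and glycine codons (GGN, in capitals) fall at 7 of 7 positions spaced every ninth base.
*Col5a3*, A_52_P503796: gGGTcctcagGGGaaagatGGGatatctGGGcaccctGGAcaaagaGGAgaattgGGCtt
This probe rose well above background only on NEXN-WT replicate 2 (level -2.66), and was not tested.

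Of the chains known from cartilage, *Col2a1* (type II chain) was well above background on the NEXN-WT arrays alone, close to that limit on replicates 2 and 3. The probe A_51_P317141, on the reverse strand at chr15:97806485-97806544, had NEXN-WT levels of -1.31, -3.32 and -3.49 and was well above background on none of the NEXN-S437E arrays. NEXN-S437E was lower by a factor of at least 1.48 (limma, adjusted p = 0.163), a bound that lies under the 2-fold threshold although the fitted log2 fold change, made partly of background values, was -2.14. Without NEXN-WT replicate 1 the NEXN-WT mean lay below the limit of detection of the NEXN-S437E arrays (ratio 0.911), so no bound remained. Of the chondrocyte markers, 9 had a probe, and *Acan*, *Matn1*, *Matn3*, *Hapln1*, *Col9a1* and *Chad* were well above background on none of the arrays. *Sox9* (log2 fold change -0.99, SE 0.41, and -0.51 without NEXN-WT replicate 1) and *Matn4* (0.43, SE 0.19) did not pass the thresholds. *Lect1*, which entered through NEXN-S437E alone, was called higher, by at least 1.98-fold. It also had an adjusted p under 0.05 by limma, and it was still called without NEXN-WT replicate 1. The *Col2a1* probe covers the code for the C-propeptide, as does the end of the *Col1a2* probe A_51_P182303 up to its stop codon, and both are shown because a close sequence could share signal. Without gaps the stretches overlap in 30 bases, of which 21 are the same (70.0%, in capitals).
*Col2a1*, A_51_P317141: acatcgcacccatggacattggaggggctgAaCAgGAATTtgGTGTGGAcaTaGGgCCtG
*Col1a2*, A_51_P182303, up to the stop codon: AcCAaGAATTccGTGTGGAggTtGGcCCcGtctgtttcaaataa
Whether *Col1a2* transcripts add to the *Col2a1* signal was not tested; both were highest on NEXN-WT replicate 1.

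*Col11a1* (α1(XI) chain), *Col24a1* and *Col27a1* had no tested probe. The *Col11a1* probe A_51_P459477 had a level of -0.83 on NEXN-WT replicate 1, well above background, and levels from -5.55 to -5.01 on the other 5 arrays, none of them above background. The *Col27a1* probe A_52_P480088 had the same pattern, with -2.96 on that array and from -5.81 to -4.12 on the rest. With A_55_P2715501 of *Col1a2*, 3 untested collagen probes were seen on NEXN-WT replicate 1 alone, an array on which 1214 probes of the whole set were seen alone, against 111 to 488 on each of the other arrays. The remaining *Col11a1*, *Col24a1* and *Col27a1* probes were well above background on none of the arrays, which says only that they were not detectable at this signal. *Col11a2*, the fibrillar chain outside the 10 genes, had 2 probes, also below that limit on every array.

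**Figure D3:**
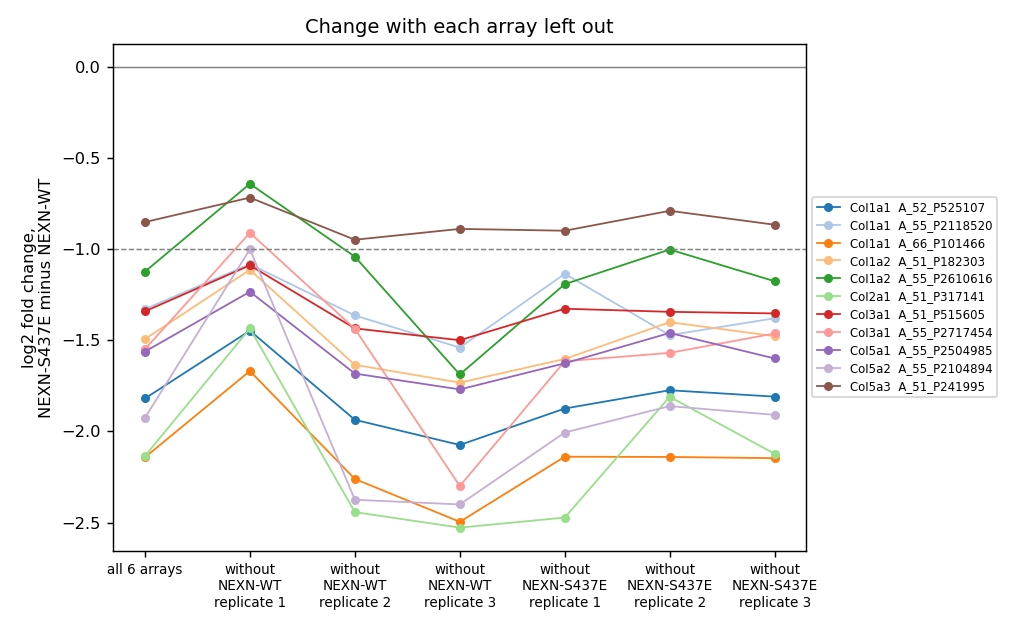
Log2 fold change (vertical axis, NEXN-S437E minus NEXN-WT) of the 11 tested probes with all 6 arrays and with each array left out in turn (horizontal axis). Every value stays below 0, and without NEXN-WT replicate 1 the values lie between -1.67 and -0.64.

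To ask whether chains that share a fibre changed by different amounts, the difference between 2 chains was taken within each array, with the probe of highest mean per gene. Of 6 planned pairs 5 were compared, and *Col5a1* against *Col11a1* was left out because *Col11a1* was not tested. With 3 arrays against 3 the exact two-sided permutation test cannot give a p under 0.1. *Col1a1* minus *Col1a2* was -0.93, -0.87 and -0.95 with NEXN-WT and -1.35, -1.15 and -1.23 with NEXN-S437E, so the change of this *Col1a1* probe minus that of *Col1a2* was -0.33 on the log2 scale (SE 0.064, exact p = 0.1, adjusted p = 0.167). The differences of *Col1a1* from *Col3a1* (-0.48, SE 0.15) and from *Col5a1* (-0.26, SE 0.081) also separated the groups, each with an exact p of 0.1 and an adjusted p of 0.167. These 3 differences lay outside the spread between arrays but rest on the smallest p the design allows, and they depend on the *Col1a1* probe. With A_55_P2118520 in its place, an alternative chosen after seeing the data, they turned to 0.16, 0.012 and 0.23 (exact p = 0.7, 1 and 0.6), and with A_66_P101466 they were -0.65, -0.80 and -0.58 (exact p = 0.1 each). A different change of the chains was therefore not shown. *Col5a1* minus *Col5a2* (0.36, SE 0.60, exact p = 1) and *Col3a1* minus *Col5a2* (0.58, SE 0.68, exact p = 0.6) overlapped between the groups, with *Col5a2* at background in NEXN-S437E; without NEXN-WT replicate 1 they were -0.23 and -0.09.

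**Figure D4:**
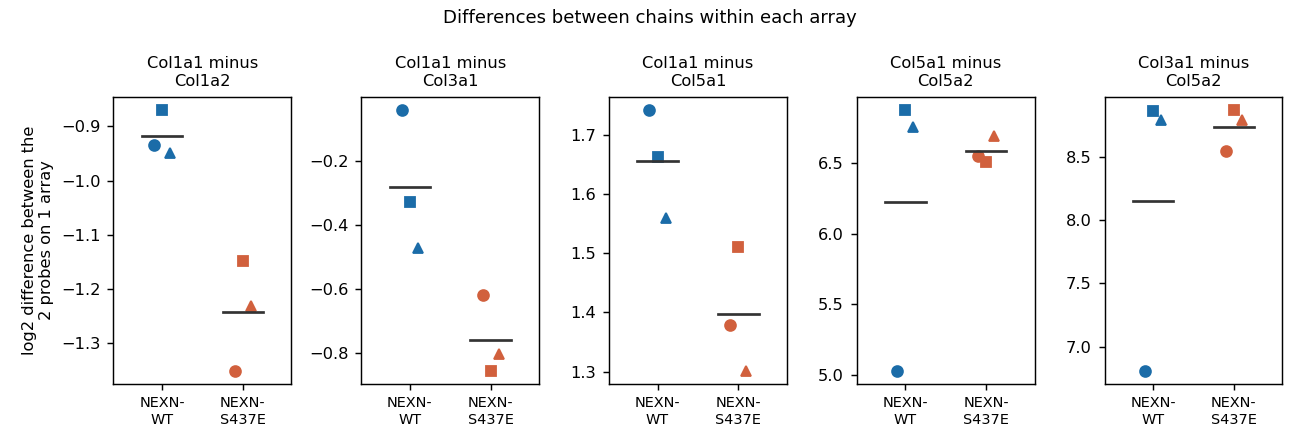
Difference in log2 signal between the 2 probes of each pair on every array (vertical axes, each with its own range; blue is NEXN-WT and orange NEXN-S437E, circles, squares and triangles are replicates 1, 2 and 3, lines are group means). In the pairs of *Col1a1* (A_52_P525107) with *Col1a2*, *Col3a1* and *Col5a1* the NEXN-S437E arrays lie below all NEXN-WT arrays, while in the pairs with *Col5a2* NEXN-WT replicate 1 lies far below the other arrays.

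Outside the fibrillar chains, the genes whose pattern over the 6 arrays was most like that of *Col1a1* A_52_P525107, after each probe was centred on its own mean, were *Panx1*, a channel protein (mean absolute difference 0.080 on the log2 scale), *Slc1a3*, a glutamate transporter (0.12), *Bdh2*, a dehydrogenase (0.12), *Col8a1*, a short-chain collagen (0.13), and *Dennd4a* (0.14), which was well above background on 3 of the 6 arrays, so that its likeness rests partly on background values. Among the collagen chains themselves *Col5a1* (0.129, nearer than *Col8a1* at 0.134), *Col1a2* (0.16) and *Col3a1* (0.24) were nearest and *Col5a3* (0.48) farthest. For *Col3a1* A_51_P515605 the nearest genes outside the chains were *Adam8*, a membrane protease (0.056), *Hebp2* (0.059), *Acp5*, the tartrate-resistant acid phosphatase (0.061), *Col6a3*, a type VI collagen chain (0.073), and *Thbs3*, a thrombospondin (0.098). Likeness was measured over 20551 probes and 6 arrays and has no test.

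The upstream 250 bases of the genes are shown for *Col1a2*, *Col3a1*, *Col5a1* and *Col5a3*, members that were lower together, with motifs in capitals. The motifs searched were CCAAT (or ATTGG on the other strand), GGGCGG (or CCGCCC) and TATAAA (or TTTATA). Over 32851 windows of the same length in RefSeq's promoter table, 33.8% held CCAAT, 32.7% GGGCGG and 12.4% TATAAA. The table held 7 of the 10 genes; *Col1a1*, *Col2a1* and *Col5a2* were not matched.
*Col1a2* (GRCm38.p6, chr6:4505368-4505617, forward strand): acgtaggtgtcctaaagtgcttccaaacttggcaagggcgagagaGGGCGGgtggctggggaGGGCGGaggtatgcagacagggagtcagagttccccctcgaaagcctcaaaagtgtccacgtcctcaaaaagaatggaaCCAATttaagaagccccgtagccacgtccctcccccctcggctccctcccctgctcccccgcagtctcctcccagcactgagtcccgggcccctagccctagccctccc
*Col3a1* (GRCm38.p6, chr1:45311288-45311537, forward strand): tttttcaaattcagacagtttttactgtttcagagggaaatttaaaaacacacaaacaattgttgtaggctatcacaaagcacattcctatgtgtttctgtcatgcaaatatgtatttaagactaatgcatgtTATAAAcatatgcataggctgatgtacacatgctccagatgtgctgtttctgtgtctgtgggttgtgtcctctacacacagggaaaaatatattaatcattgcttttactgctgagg
*Col5a1* (GRCm38.p6, chr2:27886175-27886424, forward strand): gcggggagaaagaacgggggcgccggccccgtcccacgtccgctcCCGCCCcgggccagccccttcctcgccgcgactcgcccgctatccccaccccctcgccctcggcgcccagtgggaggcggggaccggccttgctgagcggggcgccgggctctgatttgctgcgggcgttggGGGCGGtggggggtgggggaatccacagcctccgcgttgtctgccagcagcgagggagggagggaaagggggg
*Col5a3* (GRCm38.p6, chr9:20815068-20815317, reverse strand): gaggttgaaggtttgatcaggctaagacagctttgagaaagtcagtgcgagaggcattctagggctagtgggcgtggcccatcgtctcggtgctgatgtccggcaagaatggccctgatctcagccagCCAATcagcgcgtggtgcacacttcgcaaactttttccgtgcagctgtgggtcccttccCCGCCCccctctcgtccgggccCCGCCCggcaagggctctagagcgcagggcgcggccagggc
No motif was shared by all 4 windows. CCAAT stood in *Col1a2*, starting 109 bases before the transcript start, and in *Col5a3*, at 122 bases; GGGCGG or its complement stood in *Col1a2*, *Col5a1* and *Col5a3*, 2 times in each; and TATAAA stood in *Col3a1* only, at 117 bases. Of the genes without a tested probe, *Col11a1* held CCAAT and GGGCGG, *Col27a1* GGGCGG, and *Col24a1* none. These are matches of letters and not binding sites.

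The genes that act on fibrillar collagen were taken from fixed lists, with 1 probe per gene. Some of them were called lower on every list but that of modification and folding, and none was called higher. The counts are to be read against the 1.78% of all tested probes called lower, or 1.15% without NEXN-WT replicate 1. Of 20 genes for procollagen modification and folding in the endoplasmic reticulum 19 were tested and none was called in either direction (median log2 fold change -0.24); *Serpinh1*, the collagen chaperone HSP47, had -0.35 (SE 0.15). Of 13 genes for propeptide removal and crosslinking 9 were tested and 4 were called lower (median -0.92, and -0.67 without NEXN-WT replicate 1). The leading ones were *Loxl1*, a lysyl oxidase-like crosslinking enzyme (-1.24, SE 0.28, and -0.90 without that array, then not called), *Adamts2*, which cuts the N-propeptide (-1.52, SE 0.35, and -1.06 without it), and *Loxl3*, whose fitted change (-2.56, SE 0.61, and -1.89 without it) rests partly on background values, since 1 NEXN-S437E array read it well above background; the other was *Lox*, the lysyl oxidase itself (-2.71, SE 0.66, and -1.82 without it).

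All 14 genes for proteins on the fibril surface were tested, 7 were called lower and none higher (median -1.14, and -0.76 without NEXN-WT replicate 1). *Comp*, a cartilage and tendon matrix protein that binds collagen, had levels of 5.87, 3.66 and 2.77 with NEXN-WT and 0.43, -0.09 and -0.38 with NEXN-S437E (log2 fold change -4.11, SE 0.69, adjusted p = 0.0821 from limma), and the change was -3.23 without NEXN-WT replicate 1. *Postn*, the matricellular protein periostin (-2.98, SE 0.62, and -2.13 without that array), and *Col14a1*, a fibril-associated collagen (-1.39, SE 0.33, and -0.98 without it, then not called), followed, whereas *Dcn*, decorin (-0.08, SE 0.14), and *Sparc* (-0.04, SE 0.13) had values near 0. Of 16 genes for receptors, uptake and cleavage 13 were tested and 6 were called lower (median -0.94, and -0.51 without NEXN-WT replicate 1). They were led by *Timp1*, a metalloproteinase inhibitor (-2.46, SE 0.44), *Mmp14*, a membrane metalloproteinase that was at least 2.25-fold lower, and *Mmp2*, a gelatinase (-1.76, SE 0.40). Without NEXN-WT replicate 1 the bound for *Mmp14* was 1.82-fold.

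All 21 regulators of collagen transcription were tested and 4 were called lower (median -0.25): *Il11*, a cytokine of fibroblasts that was at least 1.53-fold lower, *Runx1*, a transcription factor (-1.54, SE 0.35), *Tgfb3*, a TGF-β ligand (-1.34, SE 0.31, and -0.95 without NEXN-WT replicate 1, then not called), and *Meox1*, a transcription factor of activated fibroblasts (-1.51, SE 0.37). Without NEXN-WT replicate 1 the bound for *Il11* was 1.29-fold. *Tgfb1* had 0.13 (SE 0.16) and *Smad3* -0.25 (SE 0.18), and the CCAAT-binding subunits *Nfya*, *Nfyb* and *Nfyc* had -0.14, -0.15 and 0.28. Of 33 other collagen genes 21 were tested, 9 were called lower and none higher (median -1.07, and -0.70 without NEXN-WT replicate 1), led by *Col6a3* (-1.41, SE 0.26), *Col8a2*, at least 9.79-fold lower (at least 4.55-fold without NEXN-WT replicate 1), and *Col6a2* (-1.07, SE 0.21, and -0.88 without that array, then not called). No gene of these lists had an adjusted p under 0.05 by limma. Without NEXN-WT replicate 1 the called genes numbered 3 for propeptide removal and crosslinking, 4 on the fibril surface, 5 for receptors, uptake and cleavage, 3 among the regulators, 6 among the other collagens and again none for modification and folding (median -0.16). The calls lost were those of *Loxl1*, *Col14a1*, *Fn1*, *Aspn*, *Mrc2*, *Tgfb3*, *Col6a1* and *Col6a2*, each then under 2-fold. Genes seen well above background on too few NEXN-S437E arrays, *Col8a2*, *Col12a1*, *Mmp14*, *Il11* and *Loxl3* among them, entered through NEXN-WT, which favours a lower value with NEXN-S437E. Over the genes on all 6 arrays the called numbered 3 of 8 for propeptide removal and crosslinking, 5 of 12 on the fibril surface, 5 of 11 for receptors, uptake and cleavage, 3 of 20 regulators and 7 of 14 other collagens. The share called among all probes on all 6 arrays is not given to set beside these counts. *Col14a1* and *Col12a1* stand on both the fibril surface list and that of other collagens, and *Postn*, *Comp*, *Meox1* and *Fap* are also among the activated fibroblast markers below, so that 3 of the calls there repeat calls given here.

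**Figure D5:**
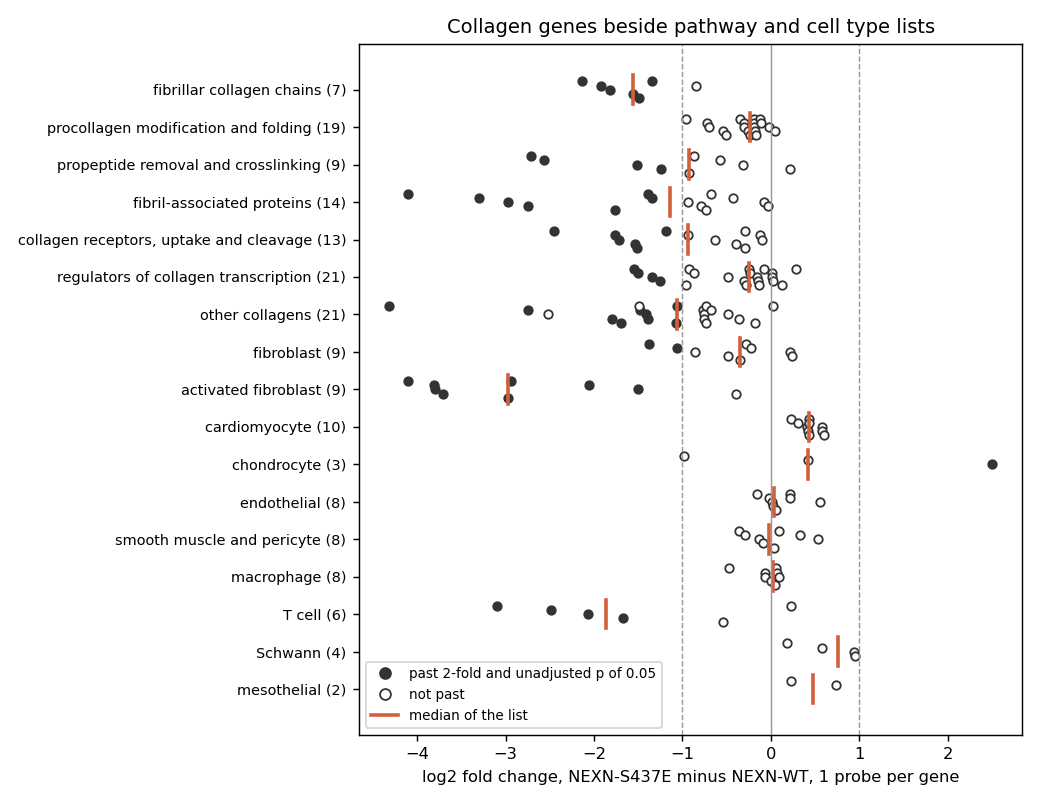
Log2 fold change (horizontal axis, NEXN-S437E minus NEXN-WT) of each tested gene, 1 probe per gene, in the collagen chains, the pathway lists and the cell type lists (rows, number of genes in brackets). Filled points pass 2-fold and an unadjusted p of 0.05 and orange bars are medians; activated fibroblast genes have the lowest median (-2.98) and cardiomyocyte genes lie between 0.23 and 0.60.

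Most tested markers of activated fibroblasts and of T cells were called lower beside the collagen genes, and those of the other cell types mostly were not. In bulk tissue fewer cells of a type and less RNA per cell cannot be told apart. Of 10 activated fibroblast markers 9 were tested and 8 were called lower (median log2 fold change -2.98, and -2.13 without NEXN-WT replicate 1), of which *Cilp* also had an adjusted p under 0.05 (0.0221 from limma), and the sum of their linear levels, in multiples of the array's 75th percentile signal, was 54.8 to 297 with NEXN-WT and 13.4 to 14.6 with NEXN-S437E. NEXN-WT replicate 1 held the 297, the other NEXN-WT arrays 65.1 and 54.8. Without NEXN-WT replicate 1 the activated fibroblast markers called lower again numbered 8. Of 10 fibroblast markers 9 were tested, 2 were called lower, *Mfap5* and *Gas1* (*Mfap5* alone without NEXN-WT replicate 1), the median log2 fold change was -0.34 with 7 of the 9 below 0, and the sums were 480 to 596 against 478 to 491, in which *Gsn* (0.24, SE 0.14), with levels of 8.15 to 8.54, weighs most; *Lamc3* was not above background on any array. All 10 cardiomyocyte markers had values above 0, none past the thresholds (median 0.43), with sums of 1993 to 2641 against 3110 to 3253, the lowest on NEXN-WT replicate 1.

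The T cell markers had 6 tested genes, of which *Cd3d*, *Cd3g*, *Cd2* and *Lck* were called lower (*Cd3d*, *Cd3g* and *Lck* also by limma's adjusted p; *Cd3g* entered through NEXN-WT alone, and 3 of the 5 genes on all 6 arrays were called), and sums of 2.91 to 4.28 against 1.49 to 1.71; unlike the collagen probes these were lowest within NEXN-WT on replicate 1. Without NEXN-WT replicate 1 the T cell markers called lower again numbered 4. With or without that array no gene was called among 8 endothelial, 8 smooth muscle and pericyte, 8 macrophage, 4 Schwann and 2 mesothelial markers tested. With all 6 arrays the summed ranges of these 5 lists overlapped between the groups. The part of any of these cell types in the collagen values was not tested.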

How the data were processed

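Total RNA of the 6 myocardium samples was labelled with Cy3 and hybridised to Agilent SurePrint G3 mouse arrays. The authors extracted the arrays with Agilent Feature Extraction 10.7.1.1 and deposited background-subtracted signal intensities on a linear scale, and a series table with normalized log2 values, whose 6 columns share 1 distribution; 99.8% of the signals in it equalled the mean over a probe's spots (relative tolerance 0.001). Groups and replicate numbers came from the sample titles. The study's legend to this comparison gives 3 animals per group, so replicates were separate animals.

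From the intensities, log2 signals were taken relative to each array's 75th percentile, outlier spots were left out, spots were averaged per probe, and probes that all 3 arrays of a group read well above background were tested (22998 probes, 13747 genes) with limma 3.58.1 (lmFit, eBayes) in R 4.3.3, with Benjamini-Hochberg adjustment over all of them. A call is 2-fold with an unadjusted p under 0.05, the study's thresholds. "At least" folds set a group without a probe above background at the lowest signal above background. The fit was tested on simulated data. No spot was saturated; the number of arrays limits the precision.

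The members and lists were chosen with earlier results of these data known. Named genes are all member probes, label checks, and per pathway list the 3 called genes of smallest p in each direction; *Lox*, *Meox1*, *Serpinh1*, *Dcn*, *Sparc*, *Tgfb1*, *Smad3*, the CCAAT-binding subunits and the markers were added by choice after their values were seen. Probe coordinates are on mm9 as in the files; promoter sequences are RefSeq's on GRCm38.p6. Alternatives were quantile normalization, normexp with an offset of 50, the percentile over detected probes, the deposited log2 values, other filters, outlier spots kept, an intensity trend, array weights, replicate and slide row blocks, the methods' t-test, a 1.5-fold threshold, 1 probe per gene, and each array left out.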

Additional observations from a re-analysis of the deposited data

How the results depend on the processing

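Each tested collagen probe stayed lower under every alternative in which it was fitted; the filter on all 6 arrays left out *Col2a1*, *Col5a2* and *Col1a2* A_55_P2610616. The number called lower was 10 under most alternatives. It was 6 under normexp background correction (0.674% of all probes) and 6 with the slide row as a block (2.47%). The methods' t-test also gave 6 (1.29%). The filter on all 6 arrays gave 7 of 8 and the 1.5-fold threshold 11 of 11, and their shares over all probes are not given here. Leaving out 1 array gave 8 to 11 (1.15% to 2.75% of all probes), the 11 among 12 tested probes. Over all probes 410 were lower and 169 higher, 155 and 25 under normexp, and 497 and 112 with the percentile over detected probes. The probes lost under normexp and the slide row block were *Col2a1*, *Col5a2*, *Col1a2* A_55_P2610616 and *Col3a1* A_55_P2717454, with log2 fold changes of -0.25, -0.61, -0.24 and -0.59 under normexp and of -1.46, -1.76, -0.99 and -1.42 under the block. Slide row 1 held all NEXN-WT arrays and 1 NEXN-S437E array, so the row block is the comparison within that row. The number past the adjusted p was 0, and 4 with an intensity trend (0.348% of all probes), 11 with array weights (which brought 16.6% of all probes past it) and 0 to 4 with 1 array left out, 4 only without NEXN-WT replicate 1. The median log2 fold change was -1.55 in the main fit. It was -1.70 with quantile normalization and with the deposited log2 values, and -1.66 with the percentile over detected probes. It was -1.43 with the slide row block, -1.37 under normexp, -1.28 with array weights and -1.05 with no filter on dim probes. With 1 array left out it was -1.92 to -1.09. The percentile over detected probes moved all probes by -0.11. *Col5a1* minus *Col5a2* turned from 0.36 to -0.95 under normexp and ran from -0.23 to 0.69 with 1 array left out, and *Col3a1* minus *Col5a2* turned from 0.58 to -0.84 and ran from -0.088 to 0.94, both negative only without NEXN-WT replicate 1; the cause was not tested. With *Col1a1* A_55_P2118520 in place of A_52_P525107 the differences from *Col1a2*, *Col3a1* and *Col5a1* turned to 0.16, 0.012 and 0.23.

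With the replicate number as a block, 10 probes were called lower, 0 past the adjusted p, and the median was -1.55. The deviations of same-numbered samples had correlations of -0.15, -0.03 and -0.18, beside -0.07 to 0.18 for samples of different numbers. With 3 samples per group these values cannot show whether samples were paired, and the labels give no pairing beyond the number.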
